A study of Mus musculus with 10 samples.

Results

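The genes described are 10 cytokine genes of dendritic cells: Il12b, Il12a, Il23a, Il27 and Ebi3, which encode the subunits of the IL-12 family, and Il15, Il15ra, Il18, Il6 and Il10. Each was taken from the probe sets that name only that gene, and all 10 were measured, by 1 probe set each, among 19938 genes in all. They were read in cDC1s, a subset of conventional dendritic cells specialised in cross-presentation, taken from mouse spleen; total RNA was amplified and hybridised to 10 Affymetrix arrays. The arrays fall into Zeb2 Id2 DKO (n = 2), Nfil3 Zeb2 DKO (n = 2), Zeb2 KO (n = 3) and WT (n = 3), so Zeb2 loss is shared by every group other than WT. The labels name the genotypes without the alleles, the driver of deletion, the strain or the age of the mice, or how the cells were purified, and mention no stimulation. Whether each replicate is its own animal is not stated, and the p-values cover the spread among these arrays only, which may be technical.

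IL-12 family cytokines are pairs of unlike chains. The p40 chain, encoded by Il12b, joins p35 (Il12a) to make IL-12, which drives type 1 T cell and NK cell responses, or p19 (Il23a) to make IL-23. EBI3 joins p28 (Il27) to make IL-27. In mice cDC1s are a main source of IL-12 in infection and in tumours. Zeb2 and Nfil3 encode transcriptional repressors that act in dendritic cell development, Nfil3 is also known in mouse macrophages as a repressor of Il12b, and Id2 encodes an inhibitor of E protein DNA binding.

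Promoter sequence of Il12b is shown because it was the 1 gene of the 10 that limma called, although its lower level was known when it was chosen. With it is that of Il12a, which encodes the partner chain and has a pair of annotated starts. The windows are the 250 bases upstream of each RefSeq start on the plus strand of GRCm38.p6, at chr11:44399813-44400062 for Il12b and at chr3:68690394-68690643 and chr3:68691174-68691423 for Il12a. Capitals mark E-boxes (CANNTG on either strand), the element bound by E proteins and, in its form CACCTG, by ZEB factors.
Il12b: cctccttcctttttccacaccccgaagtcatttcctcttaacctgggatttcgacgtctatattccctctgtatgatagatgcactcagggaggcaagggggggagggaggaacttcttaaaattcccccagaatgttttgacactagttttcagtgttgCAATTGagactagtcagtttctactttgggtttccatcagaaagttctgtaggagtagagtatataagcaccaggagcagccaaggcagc
Il12a, start 1: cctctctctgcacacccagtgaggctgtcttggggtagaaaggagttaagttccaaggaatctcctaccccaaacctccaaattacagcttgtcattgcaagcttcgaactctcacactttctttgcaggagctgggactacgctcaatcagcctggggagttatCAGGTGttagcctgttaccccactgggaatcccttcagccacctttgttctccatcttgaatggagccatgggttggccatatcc
Il12a, start 2: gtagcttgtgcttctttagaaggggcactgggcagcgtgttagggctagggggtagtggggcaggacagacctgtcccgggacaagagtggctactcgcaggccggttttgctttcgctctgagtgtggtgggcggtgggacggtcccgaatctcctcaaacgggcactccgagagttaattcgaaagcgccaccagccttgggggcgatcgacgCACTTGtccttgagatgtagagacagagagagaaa
The Il12b window held 1 E-box, whose first base lay 90 bases before the start, and it was not of the CACCTG form. The first Il12a window held 1 E-box 85 bases before the start, which was of the CACCTG form (CAGGTG on the strand shown), and the second held 1 at 35 bases. Of 32851 windows of this length in the RefSeq table, 66.2% held CANNTG and 17.2% held CACCTG, which overlaps CANNTG by definition. The NFIL3 element TTANGTAA, searched on both strands, was in 2.06% of windows and in none of those of Il12b or Il12a. A letter match is a description and not evidence of binding. Of the 10 genes 6 were in the table. Over their 8 windows there were 10 E-boxes, none in Ebi3, and CACCTG was found in Il12a and in a window of Il15ra.

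Levels are log2 of the authors' RMA intensities, and the median gene stood at 6.50 as a mean over the 10 arrays. The cells carried the markers of their label: 9 cDC1 marker genes, Irf8, Batf3, Xcr1, Clec9a, Wdfy4, Tlr3, Cadm1, Itgae and Cd8a, each lay between 9.76 and 12.99 log2 on every array, and of these Cadm1 alone was called, lower in Zeb2 Id2 DKO than in each other genotype. Nfil3 stood at 6.20 and 7.09 in Nfil3 Zeb2 DKO, against 9.98 to 10.77 in WT, and Id2 at 4.98 and 5.01 in Zeb2 Id2 DKO, against 10.15 to 10.43 in WT. Zeb2 was not lower on the arrays labelled as lacking it: it stood at 6.78 and 6.82 in Zeb2 Id2 DKO, above every WT array (log2 0.72, limma adjusted p = 0.184), at 6.24 and 6.46 in Nfil3 Zeb2 DKO, at 5.40 to 6.27 in Zeb2 KO and at 5.93 to 6.30 in WT. Since the sources used here do not say whether its probe set lies in the deleted part, it checks nothing about the deletion. Zeb2 KO replicate 3 stood apart, with correlations of 0.986 with the other Zeb2 KO arrays, against 0.994 to 0.997 between all other arrays of one group, so results that change without it are also given without it.

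Il12b, the gene of p40, was about 2 times lower in Zeb2 KO and in Zeb2 Id2 DKO than in WT, and lay near the WT level in Nfil3 Zeb2 DKO. It stood at 10.08 and 10.01 log2 in Zeb2 Id2 DKO, 11.30 and 10.73 in Nfil3 Zeb2 DKO, 9.83, 10.01 and 10.20 in Zeb2 KO, and 11.05, 11.01 and 11.25 in WT. The 5 arrays of Zeb2 KO and Zeb2 Id2 DKO were all at or below 10.20, and the 5 arrays of Nfil3 Zeb2 DKO and WT all at or above 10.73. Group means were 10.05 ± 0.05 (SD, n = 2) in Zeb2 Id2 DKO, 11.01 ± 0.41 (n = 2) in Nfil3 Zeb2 DKO, 10.01 ± 0.19 (n = 3) in Zeb2 KO and 11.10 ± 0.13 (n = 3) in WT. In order of level, WT and Nfil3 Zeb2 DKO were neighbours that did not differ beyond their spread, and so were Zeb2 Id2 DKO and Zeb2 KO.

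**Figure D1:**
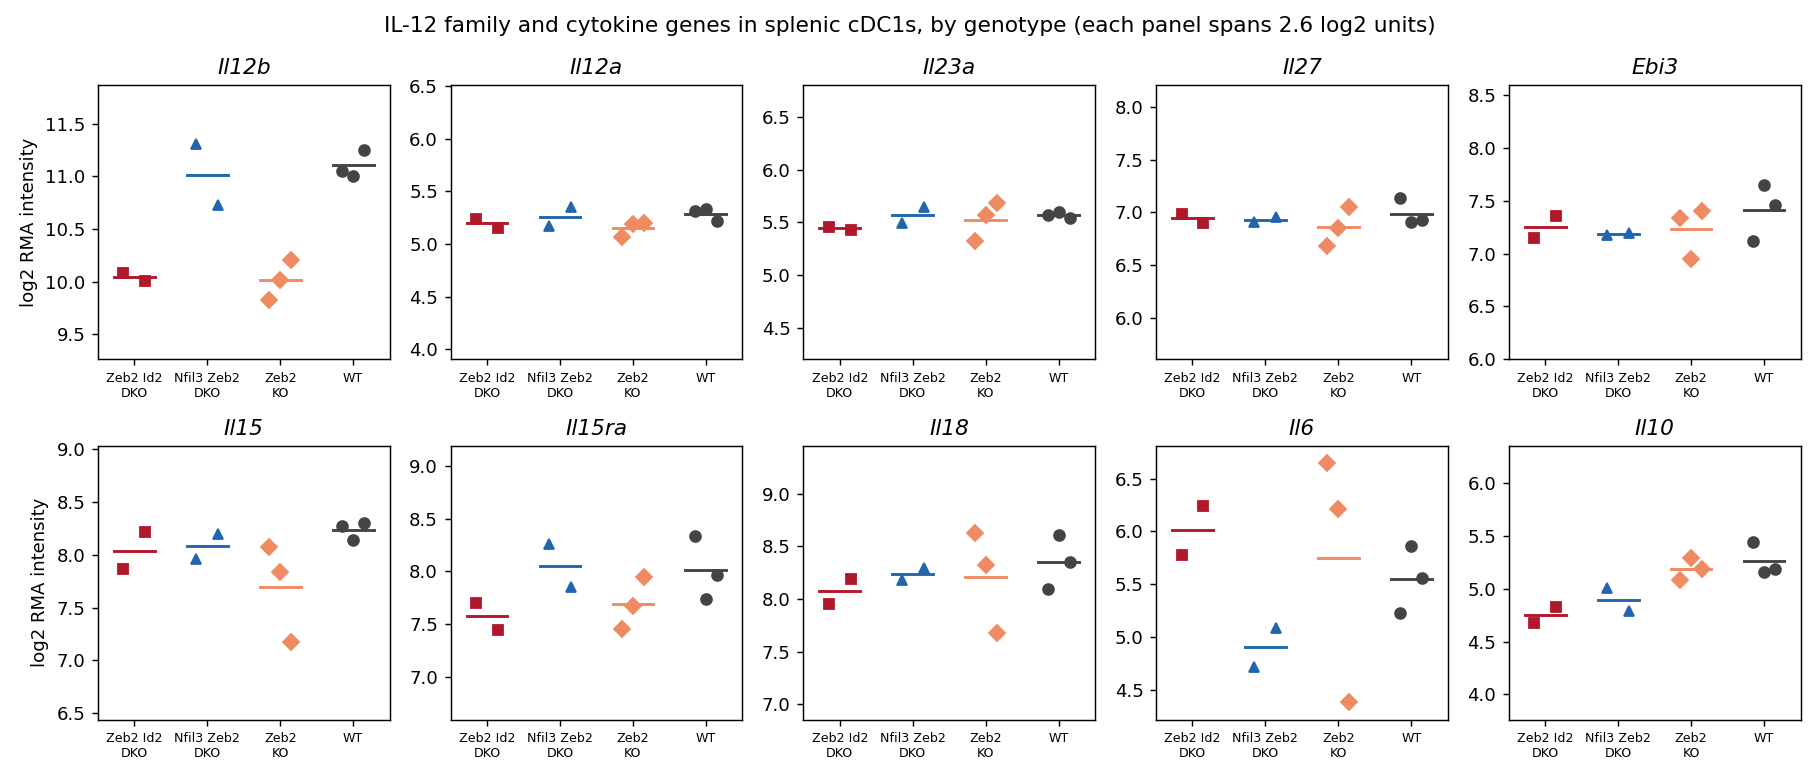
Log2 RMA intensity of each cytokine gene (vertical axis, 2.6 log2 units in every panel) by genotype (horizontal axis); points are arrays and bars are group means. Il12b separates Zeb2 Id2 DKO and Zeb2 KO, at or below 10.20, from Nfil3 Zeb2 DKO and WT, at or above 10.73, while Il6 spreads from 4.38 to 6.65 within Zeb2 KO.

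The lower level of Il12b on loss of Zeb2 was known when these genes were chosen. For the genotypes with low Il12b the size against WT is therefore given here without its test result. In Zeb2 Id2 DKO against WT the difference was log2 -1.06 (95% confidence interval -1.42 to -0.70), 2.08-fold lower. In Zeb2 KO against the same WT arrays it was log2 -1.09 (-1.41 to -0.77), 2.13-fold lower, and log2 -1.18 without Zeb2 KO replicate 3.

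The comparisons among the genotypes that lack Zeb2 asked whether a further loss moved Il12b. With Nfil3 lost too, Il12b stood 1.999-fold above Zeb2 KO (log2 0.999, 0.64 to 1.36). Both Nfil3 Zeb2 DKO arrays lay above all 3 Zeb2 KO arrays, but the difference did not pass (limma adjusted p = 0.295). Arrays lay apart in this direction for 11.9% of all genes. The difference was log2 1.09 without Zeb2 KO replicate 3 (limma adjusted p = 0.0253). It was log2 1.29 without Nfil3 Zeb2 DKO replicate 2, the lower of the Nfil3 Zeb2 DKO arrays, and log2 0.71 without replicate 1, the higher. Both levels were part of the choice of Il12b, so these p-values are a description. Against WT, Il12b in Nfil3 Zeb2 DKO had a log2 fold change of -0.09 (-0.45 to 0.27, adjusted p = 1), an interval that leaves room for a fall of up to 0.45 log2. With Id2 lost too, Il12b in Zeb2 Id2 DKO had a log2 fold change of 0.03 (-0.33 to 0.39, adjusted p = 0.987) against Zeb2 KO, and of 0.12 without Zeb2 KO replicate 3 (adjusted p = 0.918).

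Set directly against each other, the double mutants differed in Il12b. It was 1.96-fold lower in Zeb2 Id2 DKO than in Nfil3 Zeb2 DKO (log2 -0.97, -1.36 to -0.57, limma adjusted p = 0.0385). The levels of Il12b on loss of Zeb2 and in Nfil3 Zeb2 DKO were part of its choice, so this call and its p-value are a description. This call rests on few arrays: it was lost under 8 of 17 alternatives, with adjusted p up to 0.293 and log2 -0.68 without Nfil3 Zeb2 DKO replicate 1. The other lost calls were those without any WT array (0.0542 to 0.0599), without Zeb2 KO replicate 2 (0.0539), without either Zeb2 Id2 DKO array (0.188 and 0.278) and under quantile normalization (0.0554). The direction was kept in all 17 alternatives, between log2 -1.26 and -0.68. Arrays lay apart in this direction for 29.5% of all genes.

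Genes of neutrophils moved in the direction opposite to Il12b across the groups. The summed intensity of 10 neutrophil markers was 5649.9 and 15601 in Zeb2 Id2 DKO, 2696 to 4475 in Nfil3 Zeb2 DKO, 7064 to 16248 in Zeb2 KO and 1389.6 to 1816 in WT. All 5 arrays with low Il12b exceeded all 5 arrays with high Il12b in this sum. Of the 10 markers 7 rose in Zeb2 Id2 DKO and 1 (Ngp) in Zeb2 KO, each against WT, and none was called between Nfil3 Zeb2 DKO and WT. In these comparisons limma called 1.43%, 0.0201% and 0.00502% of all genes. Over the same arrays the summed intensity of the 9 cDC1 markers lay between 29256 and 29467 in Zeb2 Id2 DKO, 28599 and 29033 in Nfil3 Zeb2 DKO, 27278 and 30408 in Zeb2 KO, and 28859 and 30202 in WT. Erythroid markers also separated these arrays: the sum of 3 was 438 to 690 on the 5 arrays with low Il12b and 238 to 403 on the 5 with high Il12b. The mean log2 level of 6 cDC2 markers was 0.29 to 0.33 below the WT mean on Zeb2 Id2 DKO arrays and 0.21 to 0.51 below it on Zeb2 KO arrays, and that of 5 T cell markers 0.44 to 0.56 and 0.22 to 0.39 below it. On Nfil3 Zeb2 DKO arrays the cDC2 mean was 0.01 and 0.26 below WT and the T cell mean 0.13 and 0.26 above it. The part of other cells in the Il12b difference was not tested, and in bulk RNA fewer cells that make a transcript and less of it per cell cannot be told apart.

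**Figure D2:**
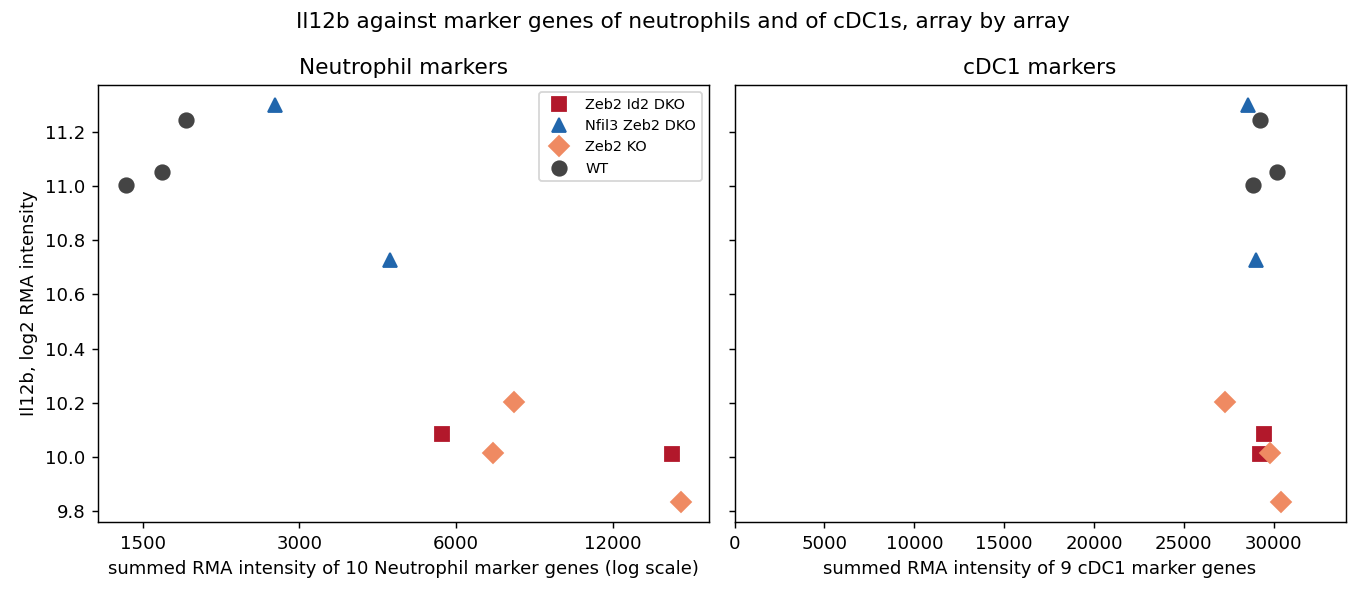
Log2 RMA intensity of Il12b (vertical axis) against the summed intensity of 10 neutrophil markers (left, log axis) and of 9 cDC1 markers (right, linear axis); each point is 1 array. Arrays with Il12b at or below 10.20 log2 all have neutrophil sums of 5649.9 or more, while cDC1 sums span only 27278 to 30408.

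The partner chains of p40 were read at low levels and none of them passed a test. Il12a, the gene of p35, stood at 5.24 and 5.15 log2 in Zeb2 Id2 DKO, 5.17 and 5.35 in Nfil3 Zeb2 DKO, 5.07, 5.19 and 5.20 in Zeb2 KO, and 5.31, 5.33 and 5.21 in WT. Every array of every group lay between 5.07 and 5.35, below the level of the median gene, so the room for a fall to be seen was small. The 3 Zeb2 KO arrays lay below the 3 WT arrays, by log2 -0.14 on average (-0.31 to 0.04, limma adjusted p = 0.791). Il12a in Zeb2 Id2 DKO had a log2 fold change of -0.09 (-0.29 to 0.11) against WT, and in Nfil3 Zeb2 DKO one of -0.03 (-0.22 to 0.17).

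Il23a, the gene of p19, lay between 5.33 and 5.68 log2 on all 10 arrays. Group means were 5.44 ± 0.02 in Zeb2 Id2 DKO (n = 2), 5.57 ± 0.11 in Nfil3 Zeb2 DKO (n = 2), 5.53 ± 0.18 in Zeb2 KO (n = 3) and 5.57 ± 0.03 in WT (n = 3). The intervals of its log2 fold change against WT reached from -0.36 to 0.11 in Zeb2 Id2 DKO, from -0.23 to 0.24 in Nfil3 Zeb2 DKO and from -0.25 to 0.17 in Zeb2 KO. Without Zeb2 KO replicate 3 the value for Zeb2 KO was log2 -0.12, against -0.04 with it. A change of Il23a as large as that of Il12b in Zeb2 KO lies outside all 3 intervals, although a low signal compresses differences.

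The IL-27 chains were read at higher levels. Il27, the gene of p28, stood at 6.98 and 6.90 log2 in Zeb2 Id2 DKO, 6.91 and 6.96 in Nfil3 Zeb2 DKO, 6.68, 6.86 and 7.05 in Zeb2 KO, and 7.14, 6.90 and 6.93 in WT. The groups overlapped in all comparisons, and the log2 fold changes against WT were -0.05 (-0.30 to 0.21), -0.06 (-0.31 to 0.20) and -0.13 (-0.35 to 0.10), in the same order. The last was -0.22 without Zeb2 KO replicate 3. Ebi3, whose product resembles p40 as a soluble receptor-like chain, averaged 7.25 ± 0.15 in Zeb2 Id2 DKO (n = 2), 7.19 ± 0.01 in Nfil3 Zeb2 DKO (n = 2), 7.23 ± 0.25 in Zeb2 KO (n = 3) and 7.41 ± 0.27 in WT (n = 3). Its log2 fold changes against WT were -0.16, -0.23 and -0.18, with limma adjusted p of 0.906, 1 and 0.879, and the last was -0.27 without Zeb2 KO replicate 3. Ebi3 did not pass in any comparison, and its intervals for the genotypes with low Il12b, -0.54 to 0.21 in Zeb2 Id2 DKO and -0.52 to 0.15 in Zeb2 KO, end short of the Il12b estimates.

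IL-15 sustains NK cells and memory CD8 T cells, and dendritic cells hold it on their surface bound to the receptor chain that Il15ra encodes. Il15 stood at 7.86 and 8.21 log2 in Zeb2 Id2 DKO, 7.96 and 8.19 in Nfil3 Zeb2 DKO, 8.08, 7.84 and 7.17 in Zeb2 KO, and 8.27, 8.14 and 8.30 in WT. All 3 Zeb2 KO arrays lay below WT, by log2 -0.54 (-0.97 to -0.10), which did not pass (limma adjusted p = 0.540). Zeb2 KO replicate 3 gave the lowest value, and without it the difference was log2 -0.28.

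Il15ra stood at 7.70 and 7.45 log2 in Zeb2 Id2 DKO, 8.25 and 7.85 in Nfil3 Zeb2 DKO, 7.46, 7.67 and 7.95 in Zeb2 KO, and 8.34, 7.74 and 7.97 in WT. Both Zeb2 Id2 DKO arrays lay below all WT arrays and below both Nfil3 Zeb2 DKO arrays. The log2 fold changes were -0.44 (-0.87 to -0.01, limma adjusted p = 0.479) against WT and -0.48 (-0.95 to -0.01, adjusted p = 0.428) against Nfil3 Zeb2 DKO. In Zeb2 KO against WT it had a log2 fold change of -0.32 (-0.71 to 0.06), or -0.45 without Zeb2 KO replicate 3, and neither passed. Among the other 9 genes Il15ra had the highest correlation with Il12b over the 10 arrays (Pearson r = 0.784), and the points share genotypes. Il15 had r = 0.395 with Il12b.

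Il18, which encodes a cytokine activated by caspase cleavage that acts with IL-12 on NK and T cells, lay between 7.68 and 8.63 log2. Its means were 8.08 ± 0.17 in Zeb2 Id2 DKO (n = 2), 8.24 ± 0.08 in Nfil3 Zeb2 DKO (n = 2), 8.21 ± 0.49 in Zeb2 KO (n = 3) and 8.35 ± 0.26 in WT (n = 3). All groups overlapped with WT, and the log2 fold changes against WT of -0.28, -0.11 and -0.14 did not pass (limma adjusted p = 0.854, 1 and 0.941). Without Zeb2 KO replicate 3, the lowest array, the value for Zeb2 KO turned to log2 0.12 (adjusted p = 0.771).

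Il6, the gene of an inflammatory cytokine, varied most within a group. It stood at 5.78 and 6.24 log2 in Zeb2 Id2 DKO, 4.71 and 5.09 in Nfil3 Zeb2 DKO, 6.65, 6.21 and 4.38 in Zeb2 KO, and 5.22, 5.86 and 5.56 in WT. Both Nfil3 Zeb2 DKO arrays lay below every WT and Zeb2 Id2 DKO array, and Zeb2 KO replicate 3 lay below all others. The log2 fold change of 1.11 between Zeb2 Id2 DKO and Nfil3 Zeb2 DKO (-0.14 to 2.36) did not pass (limma adjusted p = 0.507), nor did that of -0.85 between Nfil3 Zeb2 DKO and Zeb2 KO (-1.99 to 0.29, adjusted p = 0.698). Without Zeb2 KO replicate 3 both passed, at log2 1.11 (adjusted p = 0.0256) and -1.53 (adjusted p = 0.0253). The first also passed with array weights (adjusted p = 0.0433) and with only the compared genotypes in the fit (adjusted p = 0.0172). All arrays but 1 read Il6 below the level of the median gene. Neutrophil marker sums, given above, were lower in Nfil3 Zeb2 DKO than in Zeb2 Id2 DKO and Zeb2 KO, and their part in the Il6 values was not tested.

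Il10, which encodes an anti-inflammatory cytokine that lowers IL-12 output in dendritic cells and macrophages, stood at 4.67 and 4.83 log2 in Zeb2 Id2 DKO, 5.01 and 4.79 in Nfil3 Zeb2 DKO, 5.09, 5.29 and 5.19 in Zeb2 KO, and 5.44, 5.16 and 5.19 in WT. All 4 arrays of the double mutants lay below all 6 arrays of Zeb2 KO and WT. Over all genes, 16.2% lay below WT on all arrays of Zeb2 Id2 DKO and 10.7% on those of Nfil3 Zeb2 DKO. The share for all 4 arrays together is not given here, so nothing is read from this separation of Il10. Against WT the log2 fold changes were -0.51 (-0.77 to -0.26, limma adjusted p = 0.0627) in Zeb2 Id2 DKO, -0.37 (-0.62 to -0.11, adjusted p = 0.962) in Nfil3 Zeb2 DKO and -0.07 (-0.30 to 0.15, adjusted p = 0.936) in Zeb2 KO. None passed. The value for Zeb2 Id2 DKO passed under 4 alternatives: array weights (adjusted p = 0.0151), robust and trended variance (0.0492), only the 2 compared genotypes (0.0485), and without Zeb2 KO replicate 3 (0.0315). Against Zeb2 KO, Il10 had log2 fold changes of -0.44 (-0.70 to -0.19, adjusted p = 0.204) in Zeb2 Id2 DKO and -0.29 (-0.55 to -0.04, adjusted p = 0.512) in Nfil3 Zeb2 DKO. Its probe set read below the median gene on every array.

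**Figure D3:**
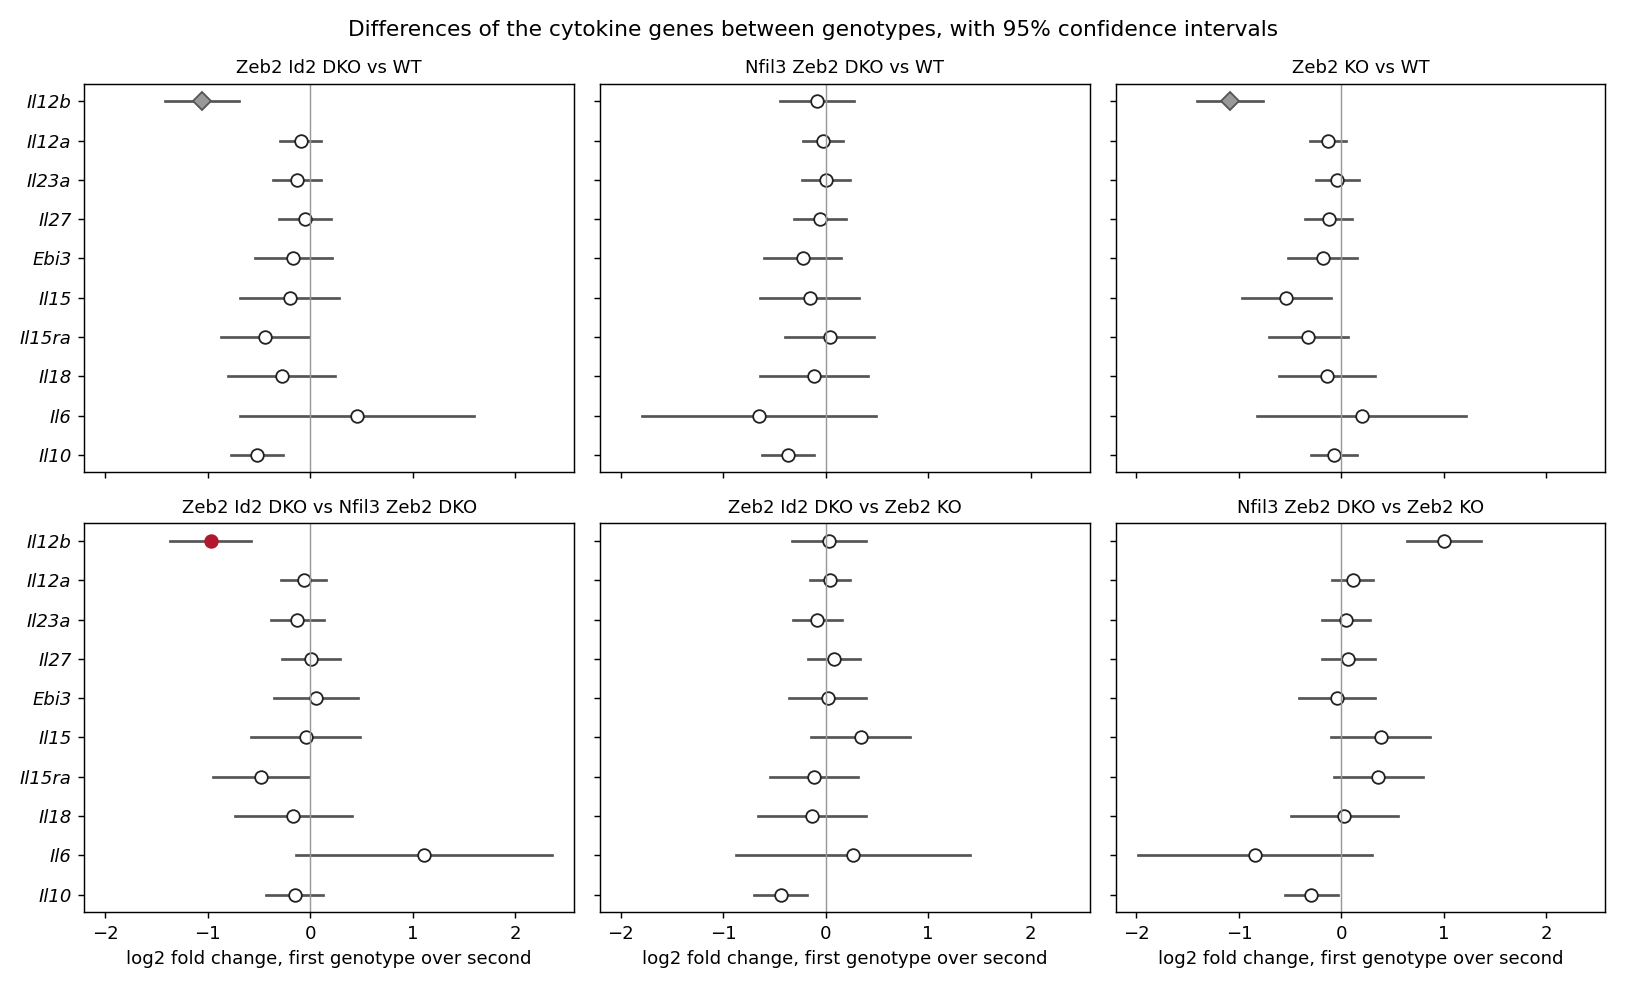
Log2 fold change of the 10 genes (rows) in 6 comparisons, the genotype named first over the one named second. Lines are 95% confidence intervals and filled circles passed at adjusted p under 0.05. Grey diamonds are sizes of Il12b against WT, drawn without their test result. Il12b is the 1 filled circle, in Zeb2 Id2 DKO against Nfil3 Zeb2 DKO (-0.97), and Il6 has the widest intervals. Levels that were part of the choice of Il12b enter this call, so it is a description.

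Counted over the 10 genes, limma called 1 lower in Zeb2 Id2 DKO against WT, where 0.557% of all genes were called lower and 1.43% in either direction; it was Il12b, so nothing is read from this count. It called 1 lower, again Il12b, in Zeb2 Id2 DKO against Nfil3 Zeb2 DKO, where 0.211% of all genes were called lower and 0.792% in either direction. Levels of Il12b were part of its choice, so this count too is a description. In Zeb2 KO against WT limma called 0 of 10 (0.0201% of all genes), with 2 of the 10 at an unadjusted p under 0.05, Il12b among them. Also 0 of 10 were called in Nfil3 Zeb2 DKO against WT (0.00502% of all genes), in Nfil3 Zeb2 DKO against Zeb2 KO (0.00502%) and in Zeb2 Id2 DKO against Zeb2 KO (0.497%). At an unadjusted p under 0.05 there were 1, 2 and 1 of the 10, in the same order. Shares of all genes at an unadjusted p under 0.05 are not given here, so nothing is read from these counts. The median log2 fold change against WT was -0.18 in Zeb2 Id2 DKO, -0.10 in Nfil3 Zeb2 DKO and -0.14 in Zeb2 KO, beside -0.01, 0.01 and 0.00 over all genes. All arrays lay below WT for 4 of the 10 genes in Zeb2 Id2 DKO (Il12b, Il23a, Il15ra and Il10; 16.2% of all genes), for 2 in Nfil3 Zeb2 DKO (Il6 and Il10; 10.7%) and for 3 in Zeb2 KO (Il12b, Il12a and Il15; 5.03%). The lower level of Il12b on loss of Zeb2 was known when it was chosen, so nothing is read from the counts that include it. The comparisons against WT share the WT arrays.

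The genes whose levels followed Il12b most closely over the 10 arrays were Ddhd1, a phospholipase gene (r = 0.982), Klk8, a serine protease gene (0.961), H1f7 (0.944), the choline transporter gene Slc44a1 (0.944), Swap70, a regulator of actin and Rac signalling (0.938), the kinesin gene Kif13b (0.936), Fsd2 (0.935) and Gfpt1, which encodes the first enzyme of hexosamine synthesis (0.932). With any 1 array left out, r stayed at or above 0.913 for these 8 genes. Their ranges were smaller than the 1.47 log2 of Il12b, from 0.33 for H1f7 to 0.81 for Slc44a1. Fsd2 and Klk8 were read at low levels, with means of 4.97 and 6.30 log2 over the 10 arrays, below the median gene at 6.50. Ddhd1 stood at 9.99 and 10.02 log2 in Zeb2 Id2 DKO, 10.36 and 10.17 in Nfil3 Zeb2 DKO, 9.87, 9.95 and 10.02 in Zeb2 KO, and 10.29, 10.22 and 10.28 in WT. Its Zeb2 Id2 DKO and Zeb2 KO arrays all lay below its Nfil3 Zeb2 DKO and WT arrays, as for Il12b, over a range of 0.49 log2. Slc44a1 had the widest range of the 8, with log2 fold changes of -0.75 in Zeb2 Id2 DKO against WT and -0.58 against Nfil3 Zeb2 DKO. These genes were picked from all genes for their correlation over these arrays, so their differences are a description with no test, and the points share genotypes and arrays.

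**Figure D4:**
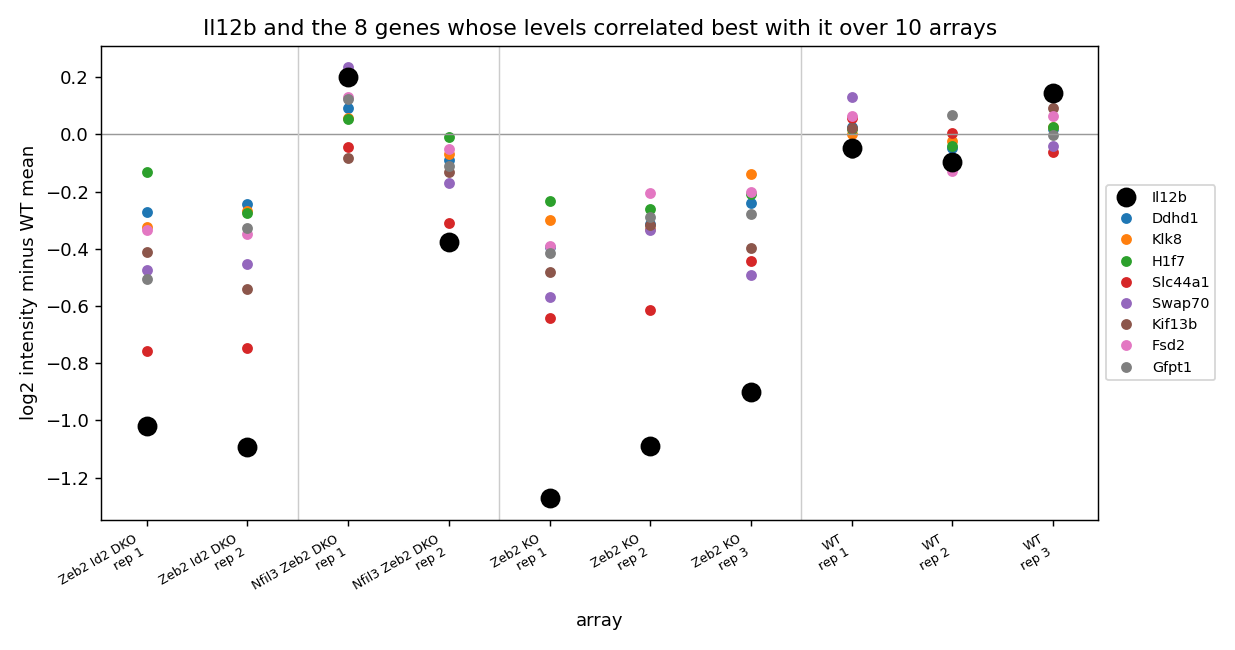
Log2 intensity minus the WT mean (vertical axis) on each of the 10 arrays (horizontal axis) for Il12b (large black points) and the 8 genes with the highest correlation with it (small points). Each gene is lower on every Zeb2 Id2 DKO and Zeb2 KO array than on any Nfil3 Zeb2 DKO or WT array, and the range of Il12b (1.47 log2) is wider than those of the 8 genes (0.33 to 0.81).

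Genes that receive these cytokines were lower in part in Zeb2 Id2 DKO. Of 20 measured receptor and signalling genes 3 fell and none rose against WT (median log2 fold change -0.10), where 0.557% of all genes were called lower and the median of all genes was -0.01. Il27ra, the specific chain of the IL-27 receptor, averaged 6.35 ± 0.06 in Zeb2 Id2 DKO (n = 2) and 6.83 ± 0.09 in WT (n = 3), a log2 fold change of -0.48 (limma adjusted p = 0.0187). Il6st, the gp130 chain shared by the receptors of IL-6 and IL-27, averaged 10.16 ± 0.03 and 10.66 ± 0.14 in these groups (log2 -0.51, adjusted p = 0.0460). Il2rb, the chain that receptors of IL-2 and IL-15 share, averaged 6.50 ± 0.20 and 7.45 ± 0.35 (log2 -0.96, adjusted p = 0.0328). Il2rb was also lower in Zeb2 Id2 DKO than in Nfil3 Zeb2 DKO, where it averaged 8.07 ± 0.17 (n = 2; log2 -1.57, adjusted p = 0.00618), the 1 call among the 20 genes there. In the remaining 4 comparisons limma called 0 of 20, with 1 to 5 at an unadjusted p under 0.05. Against WT the call of Il6st was lost under 11 of 17 alternatives (adjusted p up to 0.339), that of Il2rb under 7 (0.332) and that of Il27ra under 5 (0.211), and all 3 were lost under the replicate block. Il2rb is also expressed by NK and T cells: of 5 T cell markers 3 fell in Zeb2 Id2 DKO against WT, with summed intensities of 696 to 792 in Zeb2 Id2 DKO and 723 to 932 in WT, and their part in the Il2rb value was not tested. Of 7 NK cell markers none was called there, and their sums were 332 to 408 in Zeb2 Id2 DKO and 326 to 420 in WT. The median log2 fold change of these 7 was -0.19, with 5 below 0 and 2 at an unadjusted p under 0.05. On both Zeb2 Id2 DKO arrays 3 lay lower than WT, as did 16.2% of all genes, and 1 lay higher. The part of NK cells in the Il2rb value was not tested. Against Nfil3 Zeb2 DKO, 2 of the 5 T cell markers fell, where 0.211% of all genes were called lower. T cell sums were 696 to 792 in Zeb2 Id2 DKO and 955 to 1030 in Nfil3 Zeb2 DKO. There 5 of the 7 NK cell markers lay lower on both Zeb2 Id2 DKO arrays, as did 29.5% of all genes. The median of the 7 was -0.31, with 0 called and 4 at an unadjusted p under 0.05. Their sums were 332 to 408 in Zeb2 Id2 DKO and 393 to 490 in Nfil3 Zeb2 DKO.

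Among 7 genes of cytokine partners and processing, Nlrp3, the sensor of an inflammasome that leads to IL-18 and IL-1 beta cleavage, was higher in Zeb2 Id2 DKO (9.98 ± 0.02, n = 2) than in Nfil3 Zeb2 DKO (9.10 ± 0.27, n = 2; log2 0.88, limma adjusted p = 0.0431). It was the 1 call of that list in any comparison and was lost under 8 of 17 alternatives (adjusted p up to 0.394). Of all genes 0.792% were called between the double mutants. Summed intensities of 6 monocyte markers were 1857 to 2083 in Zeb2 Id2 DKO and 1361 to 1389 in Nfil3 Zeb2 DKO, with 3 of the 6 higher and 3 lower (median log2 fold change 0.14, 0 called, 2 at an unadjusted p under 0.05). Neutrophil sums, given above, were also higher in Zeb2 Id2 DKO, with 8 of 10 markers higher (median 1.49, 0 called, 7 at an unadjusted p under 0.05), and the part of these cells in the Nlrp3 value was not tested. Without Zeb2 KO replicate 3, Nlrp3 was also called in Nfil3 Zeb2 DKO against Zeb2 KO. Among 17 regulators of cytokine transcription Irf7, a factor of interferon responses, rose in Zeb2 Id2 DKO (11.56 ± 0.29, n = 2) against WT (10.23 ± 0.12, n = 3; log2 1.33, adjusted p = 0.0212) and against Nfil3 Zeb2 DKO (10.25 ± 0.18, n = 2; log2 1.32, adjusted p = 0.0480). These calls were lost under 5 and 9 of 17 alternatives (adjusted p up to 0.246 and 0.397). Irf7 was not called between Zeb2 Id2 DKO and Zeb2 KO. Markers of plasmacytoid dendritic cells, which express Irf7 strongly, were also higher in Zeb2 Id2 DKO. The sum of 5 ranged over 4365 to 4445 on Zeb2 Id2 DKO arrays and 2532 to 2744 on Nfil3 Zeb2 DKO arrays. It ranged over 1822 to 2885 on Zeb2 KO arrays, which overlapped the 2524 to 2727 on WT arrays. Of these 5 markers 2 rose against WT and 1 against Nfil3 Zeb2 DKO, where limma called 1.43% and 0.792% of all genes. The part of these cells in the Irf7 value was not tested. The other 16 regulators, which include Irf8, Batf3, Rel, Rela and Spi1, had no call in any comparison, and without Zeb2 KO replicate 3 Irf7 was also called in Zeb2 KO against WT.

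Of 27 further cytokine genes limma called 0 in every comparison, with 1 to 8 at an unadjusted p under 0.05. The smallest unadjusted p belonged to Il1b, the gene of IL-1 beta, in Nfil3 Zeb2 DKO against WT (log2 -0.45, -0.68 to -0.22, adjusted p = 0.677). The next belonged to Ltb, the gene of lymphotoxin beta, in Zeb2 KO against WT (log2 -0.61, -0.94 to -0.28, adjusted p = 0.314), and at log2 -0.72 it did not pass without Zeb2 KO replicate 3 (adjusted p = 0.0609). Ltb had log2 fold changes of -0.52 in Zeb2 Id2 DKO and -0.02 in Nfil3 Zeb2 DKO against WT, neither of which passed.

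Of 19 measured genes of dendritic cell maturation 1, the costimulatory ligand gene Cd80, fell in Zeb2 Id2 DKO against WT (9.92 ± 0.07, n = 2, and 10.46 ± 0.12, n = 3; log2 -0.54, limma adjusted p = 0.0257) and in Zeb2 KO against WT (9.75 ± 0.11, n = 3; log2 -0.71, adjusted p = 0.0442). Over all genes limma called 0.557% lower in Zeb2 Id2 DKO and 0.0201% in either direction in Zeb2 KO, each against WT. The median log2 fold change of the list was -0.36 in Zeb2 Id2 DKO, -0.05 in Nfil3 Zeb2 DKO and -0.40 in Zeb2 KO, each against WT. The median of all genes was -0.01, 0.01 and 0.00. Values of the list were below 0 for 16, 13 and 19 of the 19 genes. Without Zeb2 KO replicate 3 limma called 9 of the 19 lower in Zeb2 KO against WT, among 165 calls over all genes: Cd80, the chemokine receptor gene Ccr7, the actin-bundling gene Fscn1, the chemokine gene Ccl22, Traf1, Tnfrsf4, Tnfrsf9, Cd200 and Nr4a3 (median of the list -0.55). Between Nfil3 Zeb2 DKO and Zeb2 KO the median was 0.26, with 18 of 19 values above 0 and 0 called (5 at an unadjusted p under 0.05). Without Zeb2 KO replicate 3 it was 0.36, and Ccr7, Ccl22, Pdcd1lg2 and Tnfrsf9 were called, 4 of 106 calls over all genes. Other marker lists shifted in the same comparisons: against WT the median log2 fold change of cDC2 markers was -0.20 in Zeb2 Id2 DKO, -0.07 in Nfil3 Zeb2 DKO and -0.28 in Zeb2 KO. That of T cell markers was -0.62, 0.18 and -0.37, and that of neutrophil markers 2.51, 1.07 and 2.47, in the same order. Their part in the maturation values was not tested. Cd80 did not follow Il12b fully: its log2 fold change against WT in Nfil3 Zeb2 DKO was -0.41 (-0.63 to -0.19, adjusted p = 0.737), and both arrays, at 10.01 and 10.10, lay below all WT arrays. The calls of Cd80 were lost under 4 of 17 alternatives for Zeb2 Id2 DKO (adjusted p up to 0.269) and 11 for Zeb2 KO (0.228).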

How the data were processed

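RMA in Affymetrix Expression Console made the deposited values, per the submitters' processing notes. The authors' values are linear intensities (5.05 to 16019), and log2 of them was analysed. The annotation, build and versions used by the authors are not given in the sources used here. Of 28853 probe sets, 21789 named 1 gene, 1621 several and 5443 none. For 999 genes with several probe sets the one with the highest mean was used. The median intensity per array was 76.3 to 82.9.

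Genotype means were fitted with limma 3.58.1 (R 4.3.3) over all 10 arrays (6 residual and 4.47 prior degrees of freedom). The 6 comparisons were each adjusted by Benjamini-Hochberg over 19938 genes, with a call at adjusted p under 0.05. Adjusted p-values in the text are limma's. Counts at an unadjusted p under 0.05 carry no share over all genes, so nothing is read from them. The fit was tested on simulated data. The 95% intervals had a median half-width of 0.22 to 0.26 log2. The number of arrays limits this precision.

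The members, lists and tests were chosen with earlier results of these data known. Named genes were the members, the 3 targeted genes, the 8 genes closest to Il12b in Pearson correlation, and called members of each list (the 2 with the smallest p where none was called). Those 8 exclude olfactory and vomeronasal receptors, sex-linked genes, immunoglobulin and T cell receptor segments, short non-coding RNAs and predicted genes. The rule also covered called genes of the marker lists, but apart from Cadm1 and Ngp these are given as list values. Of the listed genes, those with no probe set of their own were not used here. Alternatives were the mean of probe sets, leaving out dim genes, quantile normalization, array weights, robust and trended variance, only the compared genotypes, the replicate number as a block, and each array left out. Promoter sequences are RefSeq's (GRCm38.p6).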

Additional observations from a re-analysis of the deposited data

How the results depend on the processing

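Of 996 values of the 10 genes under alternatives, 924 kept direction and side of the threshold, 11 lost a call, 16 gained one and 45 changed sign (36 of these with 1 array left out), none of which was called. The number of arrays limits all calls, low signal limits Il12a, Il23a, Il6 and Il10, and the cause of each change below was not tested. Leaving out dim genes dropped those 4 members and gave 2 calls over all genes in Zeb2 KO against WT, against 4. Array weights gave 75 calls there, 23 (against 1) in Nfil3 Zeb2 DKO against WT, 1076 (286) in Zeb2 Id2 DKO against WT, 4 (1) in Nfil3 Zeb2 DKO against Zeb2 KO, 256 (99) in Zeb2 Id2 DKO against Zeb2 KO and 1139 (158) between the double mutants. With only the 2 compared genotypes the counts were 1, 2, 554, 20 and 833, in the same order without Nfil3 Zeb2 DKO against Zeb2 KO. Deviations from group means showed no clear pairing by replicate number (13 pairs of equal number, r -0.31 to 0.16, 1 over 0.1). In groups of 2 these deviations mirror each other, so the check cannot show that the arrays are unpaired, and the labels do not say. The replicate block gave 8 calls in Zeb2 KO against WT and 183 in Zeb2 Id2 DKO against WT. Counts among the 10 genes against WT and between the double mutants include Il12b, whose levels were part of its choice, so they are a description. In Zeb2 KO against WT the count was 1 with array weights, robust and trended variance or the replicate block, against 0. In Zeb2 Id2 DKO against WT 2 were called with array weights, robust and trended variance or only the 2 genotypes, and between the double mutants 2 with array weights or only the 2 genotypes and 0 with quantile normalization.

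With 1 array left out, calls over all genes ranged from 0 to 165 in Zeb2 KO against WT, 1 to 7 in Nfil3 Zeb2 DKO against WT, 67 to 760 in Zeb2 Id2 DKO against WT, 1 to 106 in Nfil3 Zeb2 DKO against Zeb2 KO, 25 to 148 in Zeb2 Id2 DKO against Zeb2 KO and 23 to 704 between the double mutants. Calls among the 10 genes ranged from 0 to 1 in Zeb2 KO against WT, stayed at 0 in Nfil3 Zeb2 DKO against WT and in Zeb2 Id2 DKO against Zeb2 KO, and ranged from 0 to 2 in the other comparisons.

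Signs of uncalled log2 fold changes turned in Nfil3 Zeb2 DKO against WT for Il23a with quantile normalization (-0.032) and array weights (-0.0020). In Nfil3 Zeb2 DKO against Zeb2 KO they turned with array weights and the replicate block for Ebi3 (0.099 and 0.014) and Il18 (-0.12 and -0.11). In Zeb2 Id2 DKO against Zeb2 KO they turned for Il12b with quantile normalization (-0.0090) and for Il6 with array weights (-0.18) and the replicate block (-0.074). With 1 array left out, ranges that crossed 0 in Zeb2 KO against WT were -0.12 to 0.058 for Il23a, -0.35 to 0.12 for Il18, -0.25 to 0.88 for Il6 and -0.12 to 0.015 for Il10. In Nfil3 Zeb2 DKO against WT they were -0.38 to 0.20 for Il12b, -0.12 to 0.062 for Il12a, -0.073 to 0.079 for Il23a, -0.10 to 0.015 for Il27, -0.16 to 0.24 for Il15ra and -0.24 to 0.015 for Il18. In Zeb2 Id2 DKO against WT the range was -0.089 to 0.027 for Il27. In Nfil3 Zeb2 DKO against Zeb2 KO they were -0.055 to 0.12 for Il23a, -0.023 to 0.16 for Il27, -0.19 to 0.044 for Ebi3 and -0.24 to 0.24 for Il18. In Zeb2 Id2 DKO against Zeb2 KO they were -0.061 to 0.12 for Il12b, -0.012 to 0.17 for Il27, -0.12 to 0.12 for Ebi3, -0.24 to 0.011 for Il15ra, -0.40 to 0.075 for Il18 and -0.42 to 0.71 for Il6. Between the double mutants they were -0.15 to 0.026 for Il12a, -0.030 to 0.053 for Il27, -0.042 to 0.17 for Ebi3 and -0.22 to 0.13 for Il15.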
